A study of Mus musculus with 12 samples.

Results

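The 60 genes described here encode mouse chemokine ligands and chemokine receptors. They were chosen by symbol alone from 22013 genes in all. Ligands were taken by names beginning Ccl or Cxcl, and Cx3cl1. Signalling receptors were taken by the names Ccr, Cxcr and Cx3cr1, and atypical receptors by Ackr. Chemokine ligands under other symbols, such as Pf4 and Ppbp, are therefore left out. The 60 comprise 27 CC ligands, 13 CXC or CX3C ligands, 9 CC receptors, 7 CXC or CX3C receptors and 4 atypical receptors. A filter on low counts left 48 of the 60 and 13928 of all genes for testing.

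RNA was sequenced from cells of the aorta that the labels call endothelial cells, taken from mice that had all received an infusion of angiotensin II, a hormone that raises blood pressure and inflames the vessel wall. The mice were wild type (WT) or carried a global knockout of Glra2, the α2 subunit of the glycine receptor (Glra2-/-, here KO), and were given intraperitoneal saline or glycine at a labelled 800 mg/kg per day. Each of the 4 groups had 3 libraries, numbered 1 to 3 under saline and 4 to 6 under glycine, and KO glycine 5 carries a label of 80 mg/kg per day in place of 800. The labels give no age, sex or strain and do not say that libraries came from separate animals, so p-values measure the spread between these libraries, which may be technical.

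Chemokines are small secreted proteins that bind sugar chains on vessel walls and steer leukocytes through receptors coupled to G proteins. Atypical receptors bind the same ligands without that coupling and clear or redistribute them. In the aorta under angiotensin II, the pairing of Ccl2 with Ccr2 is known for drawing monocytes into the wall, and homeostatic ligands such as Cxcl12, Ccl19 and Ccl21 are made by stromal and lymphatic cells without inflammation.

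Each library held between 14.5 M and 24.3 M estimated counts. After scaling, 3 counts corresponded to 0.118 to 0.279 CPM, the normalised count used below, in which each library total is adjusted by trimmed means (TMM). Mitochondrial transcripts took 26.9 to 64.7% of the counts, with 49.96, 64.7 and 52.1% in WT saline 1 to 3 and 28.8, 26.9 and 36.2% in KO glycine 4 to 6. The chemokine genes together took 0.165 to 0.640% of the counts. WT glycine 4 had a count for 40 of the 60 genes, where the other libraries had 46 to 51. Glra2 itself had 0 counts in all 12 libraries, so the genotype labels could not be checked with it. The 12 endothelial markers (Pecam1, Cdh5 and others) were present in every group, with summed levels of 271 to 883 CPM, beside 8218 to 27765 CPM for 12 fibroblast markers and 4153 to 21357 CPM for 16 macrophage and monocyte markers. Of the 12 endothelial markers Kdr fell with glycine in WT (−1.56), and Tek, Kdr and Cdh5 were lower in KO than WT under saline (−1.57, −1.48 and −1.74). In such mixed RNA fewer cells of a type and less RNA per cell cannot be told apart.

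By FPKM, a fragment count adjusted for transcript length and library total that allows levels of different genes to be compared, the CC ligands led. Ccl8, a ligand of Ccr8 in the mouse, averaged 1327 ± 934 FPKM (SD over all 12 libraries, whatever their group) and ranged from 191 to 2845. Ccl6 followed at 565 ± 278 and ranged from 140 to 1021. Ccl7 and Ccl12, monocyte attractants, averaged 291 ± 159 and 284 ± 178 FPKM and did not differ beyond their spread. Ccl6 encodes a rodent ligand of Ccr1. Among the CXC ligands the neutrophil attractant Cxcl2 (114 ± 68.1 FPKM), the membrane-bound Cxcl16 (88.6 ± 21.5), Cxcl12 (55.7 ± 27.7) and the neutrophil attractant Cxcl1 (39.2 ± 14.5) had the 4 highest means over all libraries, with Cxcl13 close behind (37.8 ± 23.8). Their ranges overlapped and their order differed between groups. In WT saline Cxcl16 averaged 63.2 FPKM, Cxcl12 36.8 and Cxcl2 30.9, and in KO glycine Cxcl13 averaged 71.2 and Cxcl1 41.2.

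Ccr2, the monocyte receptor, averaged 110 ± 56.6 FPKM and ranged from 35.0 to 195, which was rank 9 of the 60 genes, next to Cxcl2 and above Cxcl16. Ccr1 averaged 33.8 ± 17.9 FPKM and Ccr7 7.64 ± 5.29. Of the CXC and CX3C receptors, Cx3cr1 had the highest mean (12.9 ± 8.82 FPKM), with group means of 5.30 and 6.87 FPKM in WT saline and WT glycine and of 25.4 and 13.9 in KO saline and KO glycine. Cxcr2 (5.34 ± 3.75), Cxcr3 (4.95 ± 3.73) and Cxcr4 (3.04 ± 1.56) overlapped it and one another over the 12 libraries. Ackr3, the atypical receptor that binds Cxcl12, averaged 38.9 ± 12.4 FPKM, and Ackr4, Ackr1 and Ackr2 averaged 2.95 ± 3.39, 2.14 ± 2.02 and 2.12 ± 0.977.

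At the other end, 4 ligand genes (Ccl20, Ccl26, Ccl28 and Cxcl15) had 0 counts in all libraries, which allows up to 3 counts in each. The other 8 genes that the filter removed (Ccl1, Ccl21b, Ccl21e, Ccl27al, Ccl27b, Ccr4, Ccr10 and Cxcr1) had 1 to 54 counts over the 12 libraries together. In all, 41 of the 60 reached a mean of 1 FPKM. FPKM values share the library total with the mitochondrial transcripts, so levels between groups are given below as CPM, which was scaled by trimmed means.

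**Figure D1:**
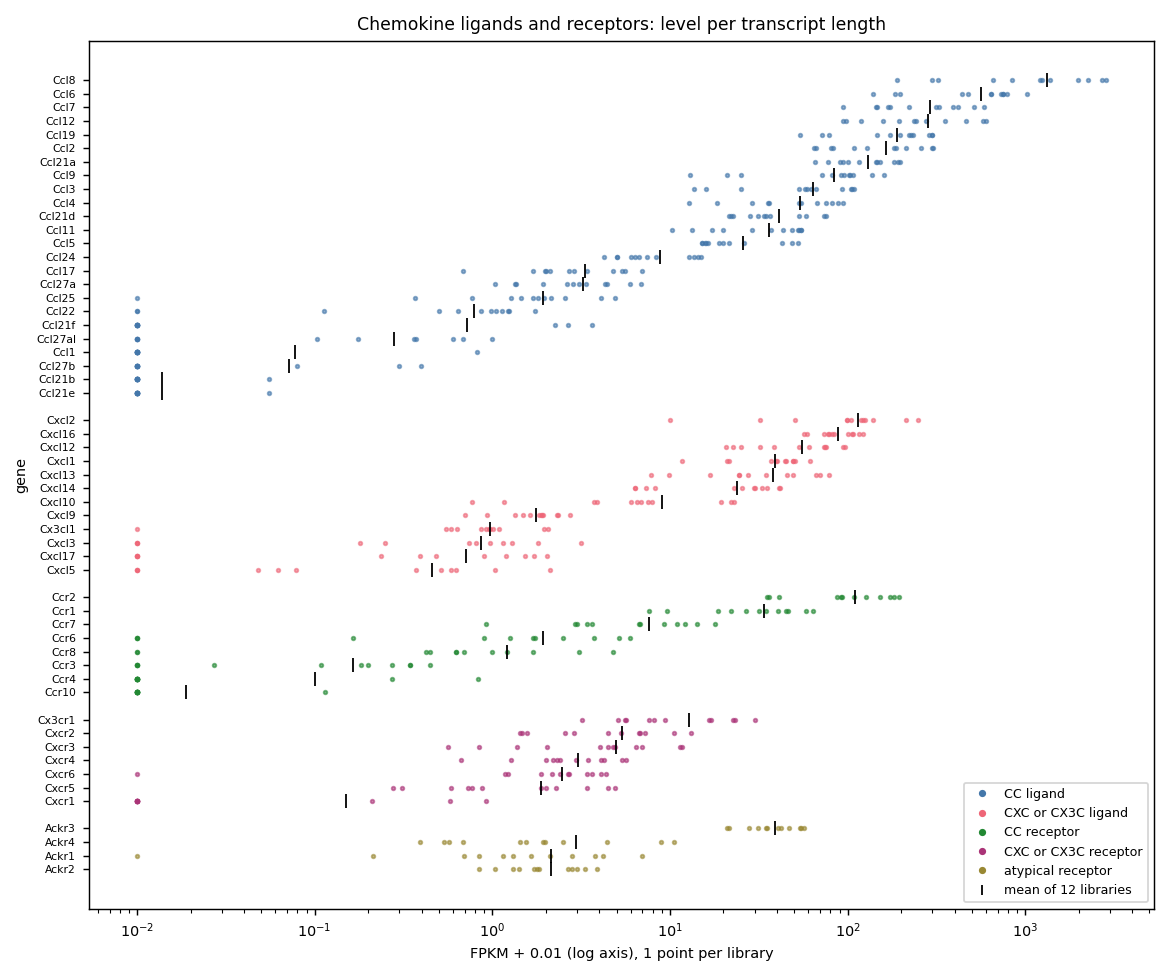
FPKM of chemokine genes in each of the 12 libraries (points, log axis with 0.01 added so that zeros can be drawn) with the mean of the libraries (bar), grouped by role. Genes with 0 counts in all libraries are not drawn. Ccl8 has the highest mean (1327 FPKM), Ccr2 leads the receptors (110 FPKM) and Ackr3 the atypical receptors (38.9 FPKM).

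Counts were compared in 1 model for all genes with the edgeR quasi-likelihood test, and the words rose, fell and differed are kept for genes with a Benjamini-Hochberg adjusted p below 0.05 over the 13928 genes. With glycine in WT, 8 of the 48 tested chemokine genes changed, 5 upward and 3 downward, where 1.39% of all genes tested changed (0.991% upward and 0.395% downward). The 5 that rose were the CC ligands Ccl8, Ccl9, Ccl2, Ccl3 and Ccl6, and those that fell were Ccl21d, Ccl21a and Cxcl14. The median log2 fold change of the 48 was 0.43, beside 0 for all genes. With glycine in KO, 5 of 48 rose (Ccl19, Cxcl12, Ccl7, Ccl21a and Ccl12) and 0 fell by edgeR (1 fell by DESeq2, and 17 of 48 had an unadjusted p below 0.05 in either direction), where 1.13% of all genes changed (0.926% upward and 0.201% downward), and the median was 0.12 beside −0.01 for all genes. Ccl21a is the one gene on both lists, and it moved in opposite directions.

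The genotypes differed most under saline. There 16 of 48 chemokine genes differed between KO and WT, where 11.3% of all genes did (6.04% higher and 5.26% lower in KO). In KO saline 11 were higher (Ccl9, Ccr2, Ccl3, Ccr1, Ccl6, Cxcr2, Cxcl2, Cx3cr1, Ccl8, Cxcl13 and Ccl4) and 5 were lower (Ackr3, Ccl21a, Ccl19, Ccl21d and Ackr4). The median log2 fold change was 0.35, beside −0.02 for all genes. Under glycine 1 of 48 differed, Cxcl14, where 2.56% of all genes differed (1.50% higher and 1.06% lower in KO), so its share did not exceed that of all genes. The median log2 fold change under glycine was 0.54, beside −0.01 for all genes. There 36 of 48 values were positive and 14 of 48 had an unadjusted p below 0.05 in either direction. The difference between the genotypes in the response to glycine, tested as an interaction, passed for 5 of 48 (Ccl21a, Ccl21d and Ccl19 with a more positive response in KO, Ccl9 and Ccl6 with a more negative one), where 1.12% of all genes passed (0.273% with a more positive and 0.847% with a more negative response). These 5 comparisons share libraries, so their values are set side by side and are not independent. In all 21 of the 48 genes passed in at least 1 comparison and 27 passed in none.

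**Figure D2:**
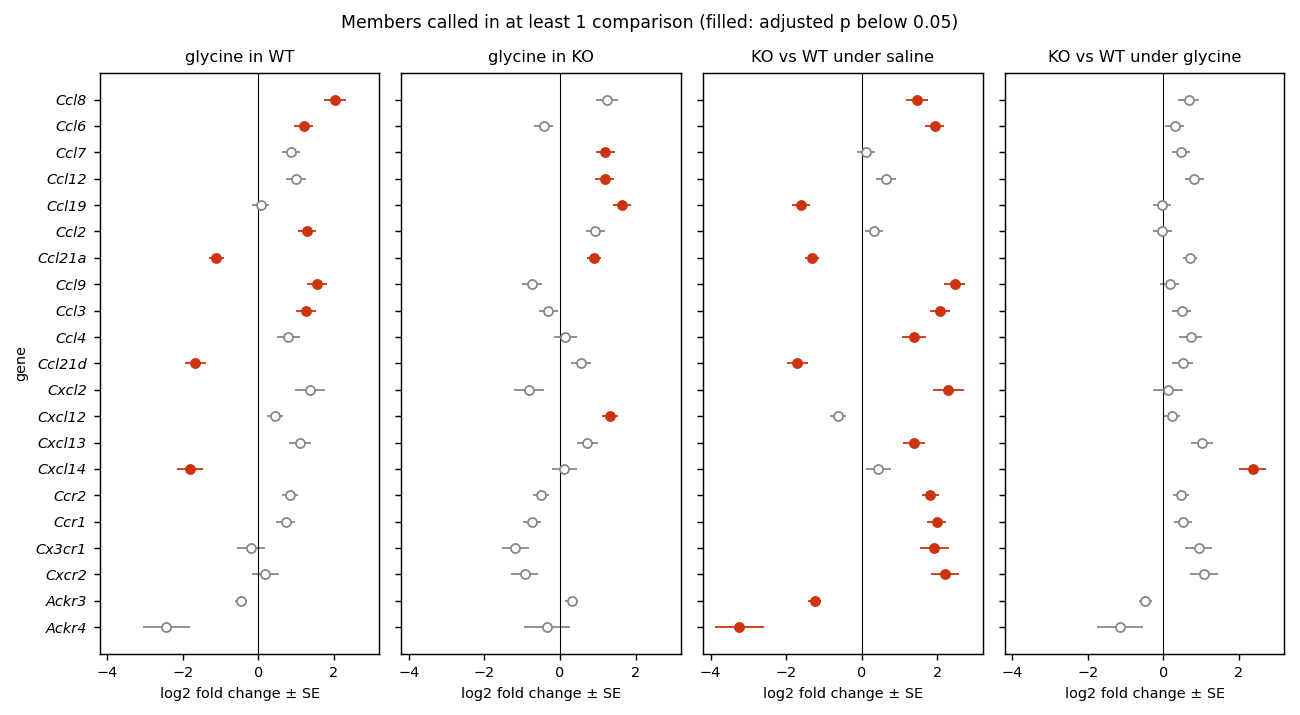
Log2 fold change ± SE of the 21 chemokine genes that passed in at least 1 comparison, in the 4 pairwise comparisons (filled points, adjusted p below 0.05). The 11 genes above 0 and 5 below 0 that are filled under saline contrast with the single filled point, Cxcl14, under glycine.

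**Figure D3:**
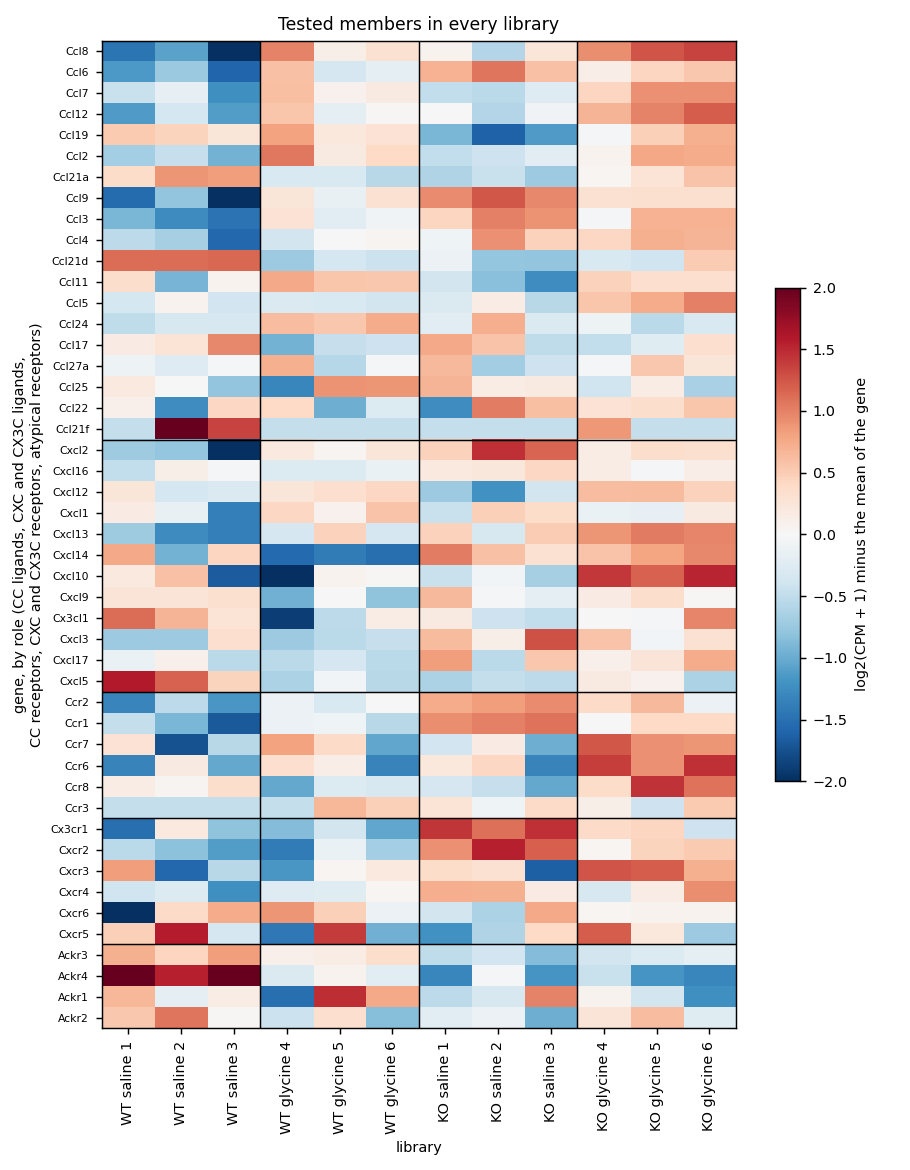
Log2(CPM + 1) of tested chemokine genes in every library, minus the mean of the gene over the 12 libraries (colour, limits at −2 and 2), grouped by role. WT saline 1 to 3 are low for Ccl8, Ccl6, Ccl9 and Ccl3 and high for Ackr4 and Ccl21d, and KO saline 1 to 3 are low for Ccl19.

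Most CC ligands with high levels lie in 1 row on chromosome 11, where the mouse annotation places 14 of the 57 chemokine genes it could be matched to. The first stretch of this row (Ccl2, Ccl7, Ccl11, Ccl12 and Ccl8) encodes ligands of Ccr2, Ccr3 and Ccr8 that attract monocytes, eosinophils and T cells. Ccl8 rose the most with glycine in WT. It was at 180, 236 and 111 CPM in WT saline 1 to 3, at 995, 539 and 613 CPM in WT glycine 4 to 6, at 521, 332 and 589 CPM in KO saline 1 to 3, and at 948, 1185 and 1275 CPM in KO glycine 4 to 6. WT saline was lowest without overlap with any other group, and KO glycine overlapped WT glycine in part. Glycine raised Ccl8 in WT by 2.03 ± 0.29 (SE) on the log2 scale (adjusted p = 0.00454), the value in KO of 1.24 ± 0.29 missed the threshold (0.0533), and Ccl8 was higher in KO than WT under saline by 1.45 ± 0.29 (0.00377). The interaction for Ccl8 was −0.78 ± 0.40 (0.436), so its response was not shown to differ between genotypes. Its receptor Ccr8 was near the floor, with group means of 0.366 ± 0.325 (KO saline) to 3.17 ± 1.47 CPM (KO glycine, both SD). Ccr8 had 0 counts in 2 libraries and passed in no comparison.

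Because Ccl8 led the response in WT, its promoter is shown, from RefSeq on GRCm38.p6 (chr11:82114935-82115234, plus strand, 250 bases before to 50 after the annotated start). Motif letters sought on both strands in all such windows were κB (GGG, 3 free bases, TTCC), the interferon-stimulated response element ISRE (GAAA, 2 free bases, GAAA), the interferon-gamma activated site GAS (TTCNNNGAA) and AP-1 (TGANTCA), found in 5.56, 3.44, 8.30 and 7.81% of 32851 promoters. Among the 43 chemokine genes with a promoter in the table, 9 held the κB letters, 3 ISRE, 3 GAS and 8 AP-1. A gene was counted when any of its promoters matched, while the percentages count promoters, so the shares are unlike measures. None of the 4 motifs lies in the window of Ccl8, which says only that these letters are not there.
Ccl8: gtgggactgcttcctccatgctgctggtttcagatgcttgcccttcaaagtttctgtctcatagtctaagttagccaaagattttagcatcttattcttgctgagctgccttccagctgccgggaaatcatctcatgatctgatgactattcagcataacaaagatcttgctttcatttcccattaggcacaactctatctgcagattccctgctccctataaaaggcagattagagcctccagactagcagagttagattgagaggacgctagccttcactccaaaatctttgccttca

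Ccl2, the main ligand of Ccr2, was at 71.8, 84.2 and 59.8 CPM in WT saline, 240, 131 and 152 in WT glycine, 81.8, 87.0 and 99.8 in KO saline, and 121, 198 and 195 in KO glycine. Both glycine groups lay above both saline groups without overlap. It rose in WT by 1.28 ± 0.24 on the log2 scale (adjusted p = 0.0167), and its value in KO was 0.94 ± 0.24 (0.0818). Under saline the genotypes stood at 71.9 ± 12.2 (WT) and 89.5 ± 9.23 CPM (KO, both SD, n = 3), a difference that missed the threshold (0.494).

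Ccl7 and Ccl12, further ligands of Ccr2, passed in the other genotype. Ccl7 was at 148, 180 and 85.6 CPM in WT saline, 307, 214 and 228 in WT glycine, 143, 138 and 168 in KO saline, and 273, 381 and 379 in KO glycine. It rose with glycine in KO by 1.20 ± 0.24 (adjusted p = 0.0252), and stood at 0.86 ± 0.24 in WT (0.111). Ccl12 averaged 111 ± 23.8 CPM in KO saline and 251 ± 46.5 in KO glycine and rose by 1.18 ± 0.26 (0.0395), and in WT the means were 71.3 ± 24.0 and 142 ± 39.2 CPM with a log2 fold change of 1.0 ± 0.26 (0.0812). For neither gene did the interaction pass (0.773 and 0.920), so a difference between the genotypes was not shown. Ccl11, the eosinophil attractant, is a gene named for its place in this row, and it passed in no comparison (log2 fold change with glycine 0.71 ± 0.30 in WT and 1.19 ± 0.30 in KO, adjusted p = 0.361 and 0.0814).

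**Figure D4:**
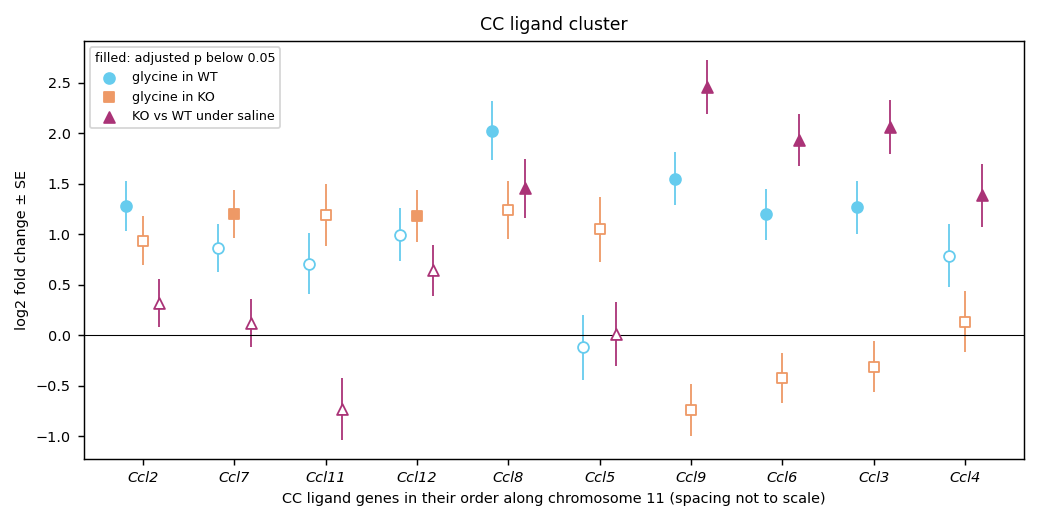
Log2 fold change ± SE of 10 CC ligand genes in their order along chromosome 11 (even spacing, not to scale) with glycine in WT, glycine in KO, and in KO against WT under saline (filled, adjusted p below 0.05). From Ccl2 to Ccl8 the values with glycine are above 0 in both genotypes, and from Ccl9 to Ccl3 the values with glycine in KO are below 0 (Ccl9, −0.74) while those of KO against WT under saline reach 2.46.

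The second stretch of the row (Ccl9, Ccl6, Ccl3 and Ccl4) encodes attractants of monocytes and macrophages. Ccl9, a Ccr1 ligand known from the mouse, was at 69.0, 118 and 44.7 CPM in WT saline 1 to 3, at 241, 183 and 251 CPM in WT glycine 4 to 6, at 393, 480 and 395 CPM in KO saline 1 to 3, and at 252, 254 and 253 CPM in KO glycine 4 to 6. KO saline was above every other group and WT saline below every other group, without overlap. Ccl9 was 2.46 ± 0.27 higher on the log2 scale in KO than WT under saline (adjusted p = 4.50e-05) and rose with glycine in WT by 1.55 ± 0.26 (0.00988). In KO its log2 fold change with glycine was −0.74 ± 0.26 (0.239), and the response differed between genotypes by −2.29 ± 0.37 (0.00824). Under glycine the genotypes were at 225 ± 36.5 and 253 ± 1.01 CPM, which were not separated by the test (0.879).

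The promoter of Ccl9 is shown because it led the comparison of genotypes under saline (RefSeq, GRCm38.p6, chr11:83578587-83578886, minus strand, written in the direction of transcription). Capitals mark the AP-1 letters, which begin 53 bases before the start, and the κB letters as they read on the other strand (GGAA, 3 free bases, CCC), 35 bases before it. The match is a description of the letters and shows no binding.
Ccl9: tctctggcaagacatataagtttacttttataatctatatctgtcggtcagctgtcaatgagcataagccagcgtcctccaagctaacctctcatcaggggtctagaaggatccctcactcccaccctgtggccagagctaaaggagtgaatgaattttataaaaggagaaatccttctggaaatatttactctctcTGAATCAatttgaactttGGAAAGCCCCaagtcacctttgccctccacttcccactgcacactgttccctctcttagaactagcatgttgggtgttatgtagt

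Ccl6 was at 311, 411 and 229 CPM in WT saline, 1034, 545 and 600 in WT glycine, 1124, 1458 and 1035 in KO saline, and 759, 929 and 999 in KO glycine. As for Ccl9, WT saline lay below and KO saline above the other groups, though WT glycine 4 was close to the lowest KO saline library. Ccl6 was higher in KO than WT under saline by 1.93 ± 0.26 (adjusted p = 0.000193), rose with glycine in WT by 1.20 ± 0.25 (0.0284), and had an interaction of −1.63 ± 0.35 (0.0401). In KO its log2 fold change with glycine was −0.43 ± 0.25 and did not pass (0.592). Ccl3, a further ligand of Ccr1, was at 20.9, 16.3 and 13.8 CPM in WT saline, 49.6, 34.8 and 38.3 in WT glycine, 55.0, 82.0 and 75.9 in KO saline, and 39.2, 66.2 and 66 in KO glycine. WT saline overlapped no other group. Its difference under saline was 2.06 ± 0.26 (0.000146) and its rise with glycine in WT 1.26 ± 0.26 (0.0252), and its interaction of −1.58 ± 0.36 missed the threshold (0.0501). Ccl4, its neighbour in the row, averaged 16.5 ± 6.03 CPM in WT saline and 42.9 ± 14.8 in KO saline and was higher in KO by 1.38 ± 0.31 (0.00854). In RefSeq the loci of Ccl3 and Ccl4 overlap, and no label says whether counting used the strand, though estimated counts of both were whole in all 12 libraries.

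Ccr1 and the monocyte receptor Ccr2 were also higher in KO than WT under saline. Ccr1 was at 57.6, 42.4 and 24.6 CPM in WT saline and 155, 164 and 172 in KO saline, and was 1.98 ± 0.26 higher in KO on the log2 scale (adjusted p = 0.000162). Ccr2 was at 126, 218 and 140 CPM in WT saline, 289, 254 and 318 in WT glycine, 526, 564 and 606 in KO saline, and 411, 492 and 290 in KO glycine. KO saline was again above all other groups, and Ccr2 was 1.81 ± 0.22 higher in KO than WT under saline (0.000111). In the glycine comparisons neither receptor passed. Ccr2 stood at 0.83 ± 0.22 in WT and −0.51 ± 0.22 in KO (0.0841 and 0.379) with an interaction of −1.34 ± 0.31 (0.0501), and Ccr1 at 0.72 ± 0.25 and −0.74 ± 0.25 (0.227 and 0.215) with an interaction of −1.46 ± 0.35 (0.0639). Ccr2 had estimated counts that were not whole in 100% of libraries, as when reads match more than 1 gene, so its level is uncertain.

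Set beside its ligands, Ccr1 was higher in KO saline together with Ccl3, Ccl6 and Ccl9, while its ligands Ccl5 and Ccl7 did not pass there (log2 fold change 0.01 ± 0.32 and 0.12 ± 0.24, adjusted p = 0.993 and 0.837). Ccr2 was higher in KO saline while none of its ligands Ccl2, Ccl7 and Ccl12 passed (0.32 ± 0.24, 0.12 ± 0.24 and 0.64 ± 0.26, with 0.494, 0.837 and 0.138). With glycine the ligands of Ccr2 passed (Ccl2 in WT, Ccl7 and Ccl12 in KO) and Ccr2 did not. With glycine in WT Ccr2 stood at 0.83 ± 0.22, beside 1.28 ± 0.24, 0.86 ± 0.24 and 1.0 ± 0.26 for Ccl2, Ccl7 and Ccl12. In KO it stood at −0.51 ± 0.22, beside 0.94 ± 0.24, 1.20 ± 0.24 and 1.18 ± 0.26. The receptor and its ligands thus passed in different comparisons, and whether their responses differ from one another was not tested.

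Markers of macrophages and monocytes moved with these genes. Their summed level was 4153 to 6316 CPM in WT saline, 9327 to 9810 in WT glycine, 15684 to 21357 in KO saline and 10009 to 11349 in KO glycine, none of the 16 was at 0 in a group, and 9 of 16 rose with glycine in WT, 14 of 16 were higher in KO than WT under saline, and 8 of 16 had a lower response to glycine in KO. In WT the smallest adjusted p were those of Mrc1, C1qa, Fcgr1 and Lyz2 (log2 fold change 1.29, 1.03, 1.54 and 0.91), and under saline those of Lyz2, Cd68, C1qa and C1qb (1.96, 1.79, 1.65 and 1.60). In KO glycine lowered Lyz2 (−0.98) and raised Ly6c2 (1.80), 1 gene each way. Counts of every marker list are to be read beside the shares of all genes. These were 1.39% with glycine in WT, 1.13% in KO, 11.3 and 2.56% between genotypes under saline and under glycine, and 1.12% for the interaction. The part of macrophage content in the values of Ccl9, Ccl6, Ccl3, Ccr1 and Ccr2 was not tested.

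Erythroid and platelet markers also moved under saline. The 10 summed to 11942 to 28233 CPM in WT saline, 11042 to 44287 in WT glycine, 36790 to 64277 in KO saline and 10289 to 21570 in KO glycine, with none at 0 in a group. KO saline lay above WT saline and KO glycine without overlap, and WT glycine overlapped it. Under saline 3 of 10 were higher in KO (Pf4, Alas2 and Hbb-bt, log2 fold change 0.82, 1.51 and 1.47), and the median interaction was −2.01, with 1 of 10, Pf4, past the threshold (−1.43). Pf4 is itself a chemokine ligand, left out of the genes described here by its symbol. The part of blood content in the values of the chemokine genes above was not tested.

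**Figure D5:**
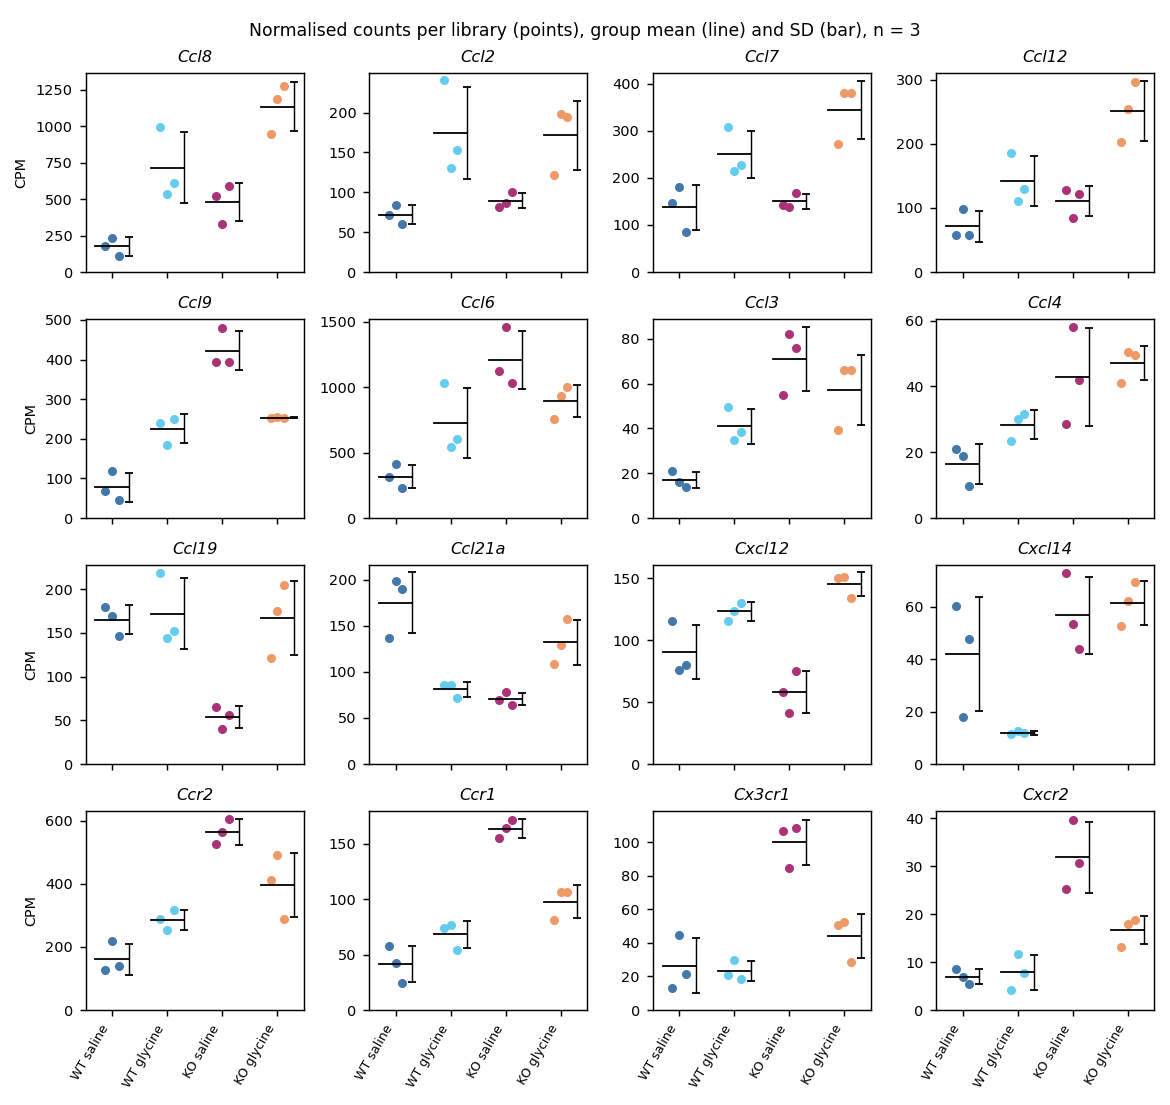
CPM of 16 chemokine genes in every library (points) with the mean (line) and SD (bar) of the 3 libraries of each group, each panel on its own axis from 0. For Ccl9 the 3 KO saline libraries (393 to 480 CPM) lie above all others. For Ccl19 the KO saline libraries (39.9 to 65.5 CPM) and for Cxcl14 the WT glycine libraries (11.3 to 12.8 CPM) lie below all others.

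Among the neutrophil attractants that bind Cxcr2, Cxcl1 and Cxcl2 had higher levels than Cxcl3 and Cxcl5. Cxcl5 averaged 2.41 ± 1.26 CPM in WT saline and 0.0617 ± 0.0553 in KO saline, and Cxcl3 0.369 ± 0.640 and 1.80 ± 1.13. Both were near the floor and passed in no comparison. For KO against WT under saline Cxcl5 stood at −5.09 ± 2.03 (adjusted p = 0.135) and Cxcl3 at 2.25 ± 1.76 (0.515). Cxcl2 was at 65.4, 62.6 and 13.7 CPM in WT saline, 124, 112 and 128 in WT glycine, 149, 298 and 244 in KO saline, and 120, 138 and 135 in KO glycine. KO saline was the highest group without overlap, and Cxcl2 was 2.29 ± 0.42 higher there than in WT saline (adjusted p = 0.00205). Cxcr2 was at 8.5, 6.87 and 5.42 CPM in WT saline, 4.27, 11.7 and 7.65 in WT glycine, 25.2, 39.7 and 30.7 in KO saline and 13.3, 17.9 and 18.8 in KO glycine, and was likewise higher in KO saline, by 2.2 ± 0.38 (0.00137). Cxcl1 averaged 27.4 ± 13.3 to 44.7 ± 7.56 CPM and passed in no comparison. Neutrophil markers summed to 106 to 279 CPM in WT saline, 154 to 301 in WT glycine, 573 to 738 in KO saline and 350 to 409 in KO glycine, with Camp and Elane at 0 in WT saline, and 7 of 10 were higher in KO than WT under saline (Camp, Mmp8, Csf3r and Ltf with the smallest adjusted p, 0.000329, 0.00149, 0.00837 and 0.00961). Their part in the values of Cxcl2 and Cxcr2 was not tested. Estimated counts of Cxcl2 were not whole in 75.0% and those of Cxcr2 in 83.3% of libraries.

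Cx3cr1, the receptor of the membrane-bound ligand Cx3cl1 and a mark of monocytes and tissue macrophages, was at 13.1, 44.6 and 21.7 CPM in WT saline, 20.8, 30.01 and 18.5 in WT glycine, 107, 84.4 and 108 in KO saline, and 50.7, 52.4 and 28.8 in KO glycine. Only the KO saline libraries stood apart from all the rest, and Cx3cr1 was 1.92 ± 0.37 higher in KO than WT under saline (adjusted p = 0.00321). With glycine in KO its log2 fold change was −1.18 ± 0.36, which missed the threshold (0.162). Cx3cl1 passed in no comparison and averaged 1.56 ± 1.56 to 5.12 ± 1.77 CPM.

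The homeostatic ligands of Ccr7, which guides dendritic cells and T cells into lymphatics and lymph nodes, took another course. Ccl19 was at 179, 169 and 147 CPM in WT saline 1 to 3, at 218, 144 and 152 CPM in WT glycine 4 to 6, at 65.5, 39.9 and 56.2 CPM in KO saline 1 to 3, and at 121, 174 and 205 CPM in KO glycine 4 to 6. KO saline was below every other group, and the other groups overlapped. Ccl19 was lower in KO than WT under saline by −1.62 ± 0.24 (adjusted p = 0.000375) and rose with glycine in KO by 1.63 ± 0.24 (0.00384). In WT the value was 0.06 ± 0.23 (0.973), and the response differed between genotypes by 1.58 ± 0.33 (0.0324).

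The promoter of Ccl19 is printed as that of the gene with the smallest p for glycine in KO (RefSeq, GRCm38.p6, chr4:42756316-42756615, minus strand, in the direction of transcription). Capitals mark the ISRE letters, which begin 208 bases before the start and are held by Cxcl10 and Cxcl14 as well among the chemokine genes.
Ccl19: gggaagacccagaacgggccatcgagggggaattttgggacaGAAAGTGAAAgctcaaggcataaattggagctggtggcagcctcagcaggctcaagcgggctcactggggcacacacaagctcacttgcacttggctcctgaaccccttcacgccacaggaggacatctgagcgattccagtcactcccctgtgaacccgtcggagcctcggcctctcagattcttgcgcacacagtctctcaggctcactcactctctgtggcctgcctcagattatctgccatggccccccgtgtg

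Ccl21 is encoded by near-identical gene copies. Ccl21a and Ccl21d have transcripts of 870 bases that differ at 6 positions, and coding sequences of 399 bases with 99.5% identity (GENCODE vM21, chromosome 4). Both coding differences are shown, in capitals, with positions counted from the first base of the coding sequence of Ccl21a (bases 70 to 99 around T84A, then bases 180 to 209 around C194T), since reads can be told apart at few places.
Ccl21a: agtgatggagggggTcaggactgctgcctt
Ccl21d: agtgatggagggggAcaggactgctgcctt
Ccl21a: ggcaatcctgttctCaccccggaagcactc
Ccl21d: ggcaatcctgttctTaccccggaagcactc
The estimated counts of both were not whole in 100% of libraries, and the split between them is uncertain.

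Ccl21a was at 137, 198 and 190 CPM in WT saline, 85.8, 85.8 and 71.9 in WT glycine, 69.6, 77.7 and 64.3 in KO saline, and 109, 129 and 158 in KO glycine. WT saline overlapped KO glycine and lay above the remaining libraries. Ccl21a fell with glycine in WT by 1.11 ± 0.19 on the log2 scale (adjusted p = 0.00969) and rose in KO by 0.90 ± 0.19 (0.0290), was lower in KO than WT under saline by −1.31 ± 0.19 (0.000329), and had an interaction of 2.01 ± 0.26 (0.00200). Ccl21d was at 71.8, 71.9 and 73.2 CPM in WT saline, 19.3, 25.1 and 23.8 in WT glycine, 29.7, 18.5 and 18.3 in KO saline and 26.0, 24.5 and 46.8 in KO glycine, so that WT saline stood alone. It fell with glycine in WT by 1.67 ± 0.28 (0.00953), was lower in KO saline by −1.71 ± 0.28 (0.000867), stood at 0.55 ± 0.27 with glycine in KO (0.486), and had an interaction of 2.22 ± 0.39 (0.0133). With the 5 copies in the table summed, a step added after the data were seen, the log2 fold changes were −1.27 ± 0.18 with glycine in WT (0.00396), 0.83 ± 0.18 in KO (0.0333) and −1.43 ± 0.18 for KO against WT under saline (0.000117), with an interaction of 2.1 ± 0.25 (0.00160).

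Ccr7 passed in no comparison and averaged 8.32 ± 5.90, 14 ± 8.14, 9.12 ± 3.87 and 24.7 ± 3.76 CPM in WT saline, WT glycine, KO saline and KO glycine. Ackr4, the atypical receptor that clears Ccl19 and Ccl21, was at 18.4, 12.7 and 21.7 CPM in WT saline, 2.85, 3.91 and 3.01 in WT glycine, 0.894, 3.63 and 1.06 in KO saline and 2.45, 1.06 and 0.898 in KO glycine. WT saline stood alone above the other groups. Ackr4 was lower in KO than WT under saline by −3.24 ± 0.65 (adjusted p = 0.00395), as were its ligands Ccl19 and Ccl21a, and its log2 fold change with glycine in WT was −2.43 ± 0.63 (0.0792). Its estimated counts were not whole in 91.7% of libraries.

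Lymphatic endothelial and fibroblast markers moved beside these ligands under saline. Lyve1 is on both the lymphatic list and that of macrophages and monocytes, so its counts enter both sums. The 9 lymphatic markers other than Ccl21a summed to 335 to 565 CPM in WT saline, 286 to 362 in WT glycine, 200 to 215 in KO saline (Tbx1 at 0) and 182 to 271 in KO glycine, and of the full list of 10, which holds Ccl21a, 5 were lower in KO saline, among them Pdpn, Flt4 and Mmrn1 (−2.92, −1.63 and −1.15). With glycine Ccl21a was the one lymphatic marker that passed in either genotype. For KO against WT under glycine Pdpn was lower (−2.38), while Ccl19 and Ccl21a did not pass (−0.04 and 0.70, adjusted p = 0.976 and 0.0628). The 12 fibroblast markers summed to 19975 to 27765 CPM in WT saline, 22201 to 23703 in WT glycine, 8218 to 10258 in KO saline and 12597 to 15831 in KO glycine, with none at 0. Of these 11 were lower in KO than WT under saline (Ccdc80, Lum, Serpinf1 and Mfap5 with the smallest adjusted p, log2 fold change −2.18, −1.40, −1.42 and −1.46) and 4 rose with glycine in KO (Serpinf1, Col1a1, Col3a1 and Col1a2, at 1.17, 1.63, 1.13 and 1.21), while Ccdc80 and Tcf21 fell with glycine in WT (−1.08 and −2.92). Under glycine 4 fibroblast markers were lower in KO than WT (Serpinf1, Col1a2, Lum and Dpt, at −0.76, −1.14, −0.64 and −0.68). Smooth muscle markers summed to 138 to 242 CPM in WT saline, 186 to 234 in WT glycine, 64.5 to 91.7 in KO saline and 121 to 129 in KO glycine, with none of the 10 at 0. Of these Acta2, Tagln and Myh11 were lower in KO than WT under saline (−1.88, −1.88 and −2.35), and Acta2 and Myh11 were lower in KO under glycine (−1.14 and −2.43). Of 7 tested adipocyte markers 2 were lower in KO under saline, Fabp4 (−0.77) and Retn (−2.89), and 1 under glycine, Adipoq (−2.30). The part of stromal and lymphatic content in Ccl19, Ccl21a and Ccl21d was not tested.

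Cxcl12, which retains leukocytes and progenitors through Cxcr4, was at 116, 76.3 and 79.5 CPM in WT saline, 115, 124 and 130 in WT glycine, 58.3, 41.3 and 75.4 in KO saline, and 150, 151 and 134 in KO glycine. KO saline was the lowest group and KO glycine the highest, both without overlap. Cxcl12 rose with glycine in KO by 1.31 ± 0.22 (adjusted p = 0.00824) and stood at 0.44 ± 0.21 in WT (0.441), and the interaction of 0.87 ± 0.30 did not pass (0.214). Ackr3, which scavenges Cxcl12, was at 180, 149 and 198 CPM in WT saline and 77.3, 84.4 and 59.7 in KO saline, and was lower in KO by −1.25 ± 0.17 (0.000253). Under glycine it averaged 127 ± 12.3 CPM in WT and 91.0 ± 5.97 in KO (0.184). Cxcr4 passed in no comparison and averaged 2.69 ± 1.17 to 7.06 ± 1.66 CPM.

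Cxcl14, a ligand made by stromal and epithelial cells whose signalling receptor is not settled, was at 60.3, 17.9 and 47.7 CPM in WT saline, 11.3, 12.8 and 11.7 in WT glycine, 72.8, 53.4 and 44.1 in KO saline, and 52.7, 62.1 and 69.3 in KO glycine. WT glycine was below every other library and WT saline 2 was close to it. Cxcl14 fell with glycine in WT by 1.82 ± 0.35 (adjusted p = 0.0167) and stood at 0.11 ± 0.33 in KO (0.977), and it was higher in KO than WT under glycine by 2.36 ± 0.35 (0.00197). The interaction of 1.93 ± 0.48 missed the threshold (0.0672), so the response was not shown to differ between genotypes. Without KO glycine 5, the library labelled with the lower dose, the difference under glycine was 2.35 (0.00974).

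Cxcl14 was the only chemokine gene that passed between the genotypes under glycine by edgeR. Its promoter is therefore shown (RefSeq, GRCm38.p6, chr13:56296502-56296801, minus strand, in the direction of transcription). Capitals mark the GAS letters, which begin 191 bases before the start, and the ISRE letters, which begin 172 bases before it.
Cxcl14: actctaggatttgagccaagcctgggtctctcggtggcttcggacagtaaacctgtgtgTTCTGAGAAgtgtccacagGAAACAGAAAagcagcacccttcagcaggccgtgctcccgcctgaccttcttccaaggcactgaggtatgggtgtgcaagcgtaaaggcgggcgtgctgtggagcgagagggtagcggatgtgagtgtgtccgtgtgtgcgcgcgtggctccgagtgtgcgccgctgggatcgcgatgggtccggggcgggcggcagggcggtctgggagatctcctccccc

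Cxcl13, which attracts B cells through Cxcr5, was at 21.1, 14 and 13 CPM in WT saline, 27.4, 48.4 and 27.7 in WT glycine, 48.4, 27.8 and 50.2 in KO saline, and 65.5, 73.2 and 70.0 in KO glycine. KO glycine was the highest group and WT saline the lowest, without overlap. It was higher in KO than WT under saline by 1.39 ± 0.29 (adjusted p = 0.00565), and under glycine its value of 1.01 ± 0.29 missed the threshold (0.0877). Cxcr5 passed in no comparison. Markers of B and plasma cells summed to 353 to 470 CPM in WT saline, 579 to 1098 in WT glycine, 866 to 1127 in KO saline and 1619 to 1781 in KO glycine, with none of the 10 at 0. Of 9 tested 3 rose with glycine in WT and 1 in KO, 3 were higher in KO under saline and 2 under glycine, and Igkc rose or was higher in all 4 pairwise comparisons (log2 fold change 1.18 to 1.74). Their part in the value of Cxcl13 was not tested.

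Ccl5, a ligand of Ccr1 made by T cells and macrophages, passed in no comparison. It was at 9.45, 12.9 and 9.17 CPM in WT saline, 9.90, 9.78 and 9.29 in WT glycine, 9.84, 13.8 and 8.09 in KO saline, and 18.5, 21.2 and 25.8 in KO glycine. KO glycine stood alone, yet the log2 fold changes of 1.05 ± 0.32 with glycine in KO and 1.18 ± 0.32 for KO against WT under glycine missed the threshold (adjusted p = 0.160 and 0.0713). Cxcr3, the receptor of interferon-induced ligands on T cells, averaged 5.45 ± 2.75 to 6.0 ± 4.01 CPM in the other 3 groups and 14.6 ± 3.05 in KO glycine, with no call. T and NK cell markers summed to 52.7 to 98.1 CPM in WT saline, 63.1 to 122 in WT glycine, 56.2 to 114 in KO saline and 304 to 341 in KO glycine, with none of 15 at 0 in a group, and 4 rose with glycine in KO (Trbc2, Trbc1, Lck and Trac, at 3.98, 3.54, 2.61 and 2.46). Under glycine 3 of 15 were higher in KO than WT (Trbc2, Trbc1 and Lck, at 2.87, 2.80 and 1.89). The part of T cell content in the values of Ccl5 and Cxcr3 was not tested. Under DESeq2, an alternative test, Ccl5 differed between the genotypes under glycine (0.00510). Cxcl16, the membrane-bound ligand of Cxcr6, had group means of 138 ± 8.02 to 197 ± 16.3 CPM and no call. Its estimated counts were not whole in 100% of libraries, so its level is uncertain. Of the 4 atypical receptors Ackr1 and Ackr2 passed nowhere, at 1.13 ± 0.889 to 3.55 ± 3.43 and 4.06 ± 1.46 to 9.14 ± 3.64 CPM.

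Genes downstream of chemokine receptors and proteins that handle chemokines differed mainly between genotypes under saline, the comparison with the most calls over all genes too. Of 52 tested genes of this list 18 were higher and 3 lower in KO saline, where 6.04% of all genes were higher and 5.26% lower. The median log2 fold change was 0.61 beside −0.02 for all genes. Among those with the smallest adjusted p were Rac2, a GTPase of leukocyte migration (1.97), Ccrl2, which binds chemerin (2.15), and Rgs2, a regulator of G-protein signalling (2.11). The chemerin gene Rarres2 was among the 3 that were lower (−1.13). With glycine in WT, where 0.991% of all genes rose, 2 rose, Rgs1, which shortens G-protein signalling (1.28), and Pik3r5, a subunit of the kinase PI3Kγ (2.82). With glycine in KO 0 of 52 passed by edgeR, which is near the 1.13% of all genes (6 had an unadjusted p below 0.05, and DESeq2 called 1 upward and 1 downward). Under glycine Rac2 (1.10) and Ccrl2 (1.37) were higher in KO, where 1.50% of all genes were. Rgs1 had an interaction of −1.52, and 1 of 52 is near the 1.12% of all genes.

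Cytokines and factors known to induce chemokine genes were described in the same way. Of 22 tested, 12 were higher in KO than WT under saline, with a median log2 fold change of 0.83, and 0 were lower (1 was by DESeq2, and 16 had an unadjusted p below 0.05 in either direction). Of all genes 6.04% were higher there and 5.26% lower. The smallest adjusted p were those of the cytokine genes Tnf (3.02) and Il1b (1.82), of Irf8, a factor of myeloid cells (1.5), and of Nfkbia, the inhibitor of NF-κB (1.12). With glycine Tnf (2.29) and Il10 (2.38) rose in WT and Irf7, a factor of the interferon response, rose in KO (1.62), where 0.991 and 0.926% of all genes rose. Under glycine Irf7 (2.51) and Il1b (1.66) were among those higher in KO, as were 1.50% of all genes. By edgeR 0 of 22 had an interaction, near the 1.12% of all genes (8 had an unadjusted p below 0.05, and DESeq2 called 1 upward and 2 downward).

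Of the 16 calls under saline, 15 held with any 1 library left out, and Ccl4 was lost without KO saline 2 (adjusted p = 0.0558). The calls with glycine rested on single libraries to a greater degree. In WT, Ccl8, Ccl9 and Ccl21d held without any 1 library, while the count of 8 became 5 without WT saline 1, 4 without WT saline 3 and 5 without WT glycine 6. Ccl6, Ccl3 and Ccl2 were lost without WT saline 3 (0.105, 0.0992 and 0.0721), and Cxcl14 and Ccl21a without WT glycine 6 (0.0757 and 0.0537). Further losses were those of Cxcl14 without WT saline 1, WT saline 3 or WT glycine 5, of Ccl2 without WT saline 1, of Ccl3 without WT saline 2 or WT glycine 4 or 6, and of Ccl6 without WT saline 1 or WT glycine 4, all at adjusted p no higher than these. In KO, Ccl19 and Cxcl12 held throughout, and the count of 5 became 2 without any 1 of KO saline 1, 2 or 3 or KO glycine 5 or 6, where Ccl7, Ccl21a and Ccl12 were lost at up to 0.125, 0.144 and 0.195. The interactions of Ccl21a, Ccl9 and Ccl21d held throughout, those of Ccl19 and Ccl6 were lost without 7 and 8 of the 12 libraries (up to 0.0942 and 0.113), and the count of 5 became 3 without WT glycine 6, KO saline 2, KO saline 3, KO glycine 5 or KO glycine 6. Cxcl14 under glycine held without any 1 library, and 1 further gene passed without WT glycine 4 or WT glycine 5.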

How the data were processed

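RNA-seq of 12 libraries was analysed from the authors' deposited table, with expected counts and FPKM values for every gene. The tools named, per the submitters' processing notes, are RSEM, Bowtie2 2.2.8, HISAT2 2.1.0 and StringTie 1.3.1. Build and annotation: not given in the sources used here. Per the labels' protocols, mRNA was captured on beads from Trizol-extracted RNA. Expected counts were rounded, filtered with filterByExpr, scaled by TMM and tested with edgeR 4.0.16 (R 4.3.3, robust quasi-likelihood fit, 4 group means, 5 contrasts), with Benjamini-Hochberg adjustment over 13928 genes. SE is the log2 fold change over the root of F and includes the spread between libraries. CPM uses TMM-scaled totals. Floors of 3 counts cover counting error only. The fit was tested on simulated data. Genes named were those passing in any comparison, the 3 smallest p per comparison, the 4 highest mean FPKM per role, and up to 4 genes per list. A few ligands, receptors and neighbours of these were named beside them. Members, lists and tests were chosen with earlier results of these data known. Some genes are not reported here, in text or figures. Replicate numbers showed no pairing of libraries. Correlations of deviations were −0.0339 to 0.0194 for equal numbers and −0.0368 to 0.0449 for unequal ones. With 3 libraries a group this does not exclude a shared batch.

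Alternatives were size factors (RLE), DESeq2 1.42.0, other filters, FPKM with limma 3.58.1 (pseudocounts 1 and 0.1), removal of mitochondrial and haemoglobin genes, only the compared groups, a replicate block and each library left out. Promoters, gene order and overlaps were from RefSeq (GRCm38.p6), and Ccl21 transcripts from GENCODE vM21.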

Additional observations from a re-analysis of the deposited data

Results flagged for a closer look

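The response to glycine differed between the genotypes, by the interaction term of the edgeR quasi-likelihood test, for 5 chemokine genes. For Ccl21a the difference (response in KO minus response in WT, log2) was 2.01 (adjusted p = 0.00200), with group means of 175 ± 33.4 and 81.2 ± 8.05 CPM in WT saline and WT glycine and of 70.5 ± 6.76 and 132 ± 24.6 CPM in KO saline and KO glycine (SD, n = 3). For its near-identical copy Ccl21d it was 2.22 (0.0133). Both copies fell in 3 of 3 WT glycine libraries against every WT saline library. For Ccl19 the difference was 1.58 (0.0324), where the WT groups overlapped. For Ccl9 and Ccl6 it was −2.29 (0.00824) and −1.63 (0.0401), with all WT glycine libraries above all WT saline libraries and all KO glycine libraries below all KO saline libraries. Within KO their log2 fold changes with glycine of −0.74 and −0.43 did not pass (0.239 and 0.592). The interactions of Ccl19 and Ccl6 were lost without 7 and 8 of the 12 libraries, KO glycine 5 among them.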

How the results depend on the processing

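Of 35 calls named, all 35 passed in the same direction with size factors in place of TMM, with DESeq2, without a filter, with at least 1 CPM in 6 libraries, and without mitochondrial and haemoglobin genes. On FPKM 33 of 35 passed, and with only the compared groups 24 of 30. No named value reversed. With glycine in WT the count of 8 (5 higher, 3 lower) was 14 with DESeq2, 20 (17 higher, 3 lower) on log2(FPKM + 1), 18 (17 and 1) on log2(FPKM + 0.1) and 2 with only the compared groups, where Ccl21a, Ccl9, Cxcl14, Ccl2, Ccl3 and Ccl6 missed the threshold (adjusted p from 0.0570 to 0.138). With glycine in KO the count of 5 was 10 with DESeq2, 11 and 10 on FPKM and 12 with only the compared groups. For KO against WT under glycine the count of 1 was 6 (5 higher, 1 lower) with DESeq2 and 6 and 4 on FPKM, Ccl21a (0.72) and Ccl5 (1.19) among those that passed with DESeq2 and on FPKM (0.77 and 1.21 on log2(FPKM + 1), 0.77 and 1.25 on log2(FPKM + 0.1)). The interaction count of 5 (3 higher, 2 lower) was 6 (3 and 3) with size factors, 7 (3 and 4) without mitochondrial and haemoglobin genes, 9 (4 and 5) without a filter, 11 (4 and 7) with DESeq2 and 10 (4 and 6) and 7 (3 and 4) on FPKM. On log2(FPKM + 1) the median of all genes stood at 0.31 with glycine in WT, 0.19 in KO and 0.15 for KO against WT under saline, where the counts gave 0, −0.01 and −0.02, so FPKM changes are to be read relative to it. Counts over all genes moved too. With glycine in WT 1.39% of all genes passed by edgeR, 3.86% with DESeq2, 6.86% on log2(FPKM + 1) (6.53% higher, 0.330% lower) and 0.243% with only the compared groups. In KO the shares were 1.13, 3.63, 4.62 and 2.57%, for genotypes under glycine 2.56, 5.87, 3.96 and 2.86%, and for the interaction 1.12, 4.10 and 1.73% without the last. The causes were not tested. With each library left out the counts ranged from 4 to 10 (glycine in WT), 2 to 6 (glycine in KO), 15 to 18 (genotypes under saline), 1 to 2 (genotypes under glycine) and 3 to 7 (interaction). With the replicate number as a block, for which the data showed no pairing, the genotype comparisons gave 16 and 1, and all 17 calls passed. Depth limits the 12 untested genes, which had 0 to 54 counts over all libraries.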
